A study of Mus musculus with 6 samples.

Results

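The Kruppel-like factors (KLFs) are transcription factors with a C-terminal trio of zinc fingers that bind CACCC and GC-rich elements in promoters and enhancers. Members related to Klf6 and Klf7 mostly activate transcription, Klf3 recruits the corepressor CtBP, and Klf10 and Klf13 recruit SIN3A. In macrophages, Klf2 and Klf4 are known as restraints on inflammatory gene expression, Klf4 also for its part in monocyte differentiation, and Klf6 as a factor that favours inflammatory responses.

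The 7 genes described here, Klf2, Klf3, Klf4, Klf6, Klf7, Klf10 and Klf13, were chosen by name and not by their values, and all 7 were found among the 18429 genes of the count matrix. The matrix held 13 genes named Klf in all. It came from MARS-seq, a plate-based method in which single cells are sorted into wells and each captured mRNA is counted by a molecular barcode (UMI) read at its 3' end. Bone marrow-derived macrophages came from wild-type mice and from mice with floxed Rad21 alleles, which were then deleted in culture (Rad21-/-). Rad21 encodes a subunit of the cohesin ring that holds chromatin loops. Both genotypes carried creERT2/creERT2 at the Rosa26 locus, which is active in all cells, came from mice of a mixed strain background, were grown in L929-conditioned medium, received 4-hydroxytamoxifen at 200 nM on day 4 and were used on day 7. The Rad21 alleles were floxed in the Rad21-/- cells and WT/WT in the controls, so that the deletion was 3 days old. Within each genotype, cells were untreated (UT) or received bacterial lipopolysaccharide (LPS, 10 ng/ml) for 2 h or 8 h, which gave 6 conditions of 1 sample each. No condition had a replicate and no test between samples was run, and how many animals stood behind a sample was not given in the sources used here. Fewer cells with a transcript and less RNA per cell cannot be told apart in summed values, nor in the shares of wells with a UMI that are given beside them.

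Of 1362 wells, 17 had more than 25000 UMIs, the deepest with 496955 UMIs. The limit fell in a continuous range of depths, with 25105 UMIs in the shallowest well above it and 24770 in the deepest below it. In wild-type macrophages at 2 h, 5 such wells held 45.5% of the UMIs of the sample. These wells were left out of the values below unless stated, and whether they held more than 1 cell was not tested. With them kept, 16.9% of all genes were higher and 4.96% lower at 2 h in wild-type macrophages by the fold defined below, where 8% and 13.5% were without them. The 1345 wells used numbered 238, 181 and 253 in wild-type macrophages at 0, 2 and 8 h and 267, 184 and 222 in Rad21-/- macrophages, with 1197415 to 1734640 UMIs per sample and a median of 5544 to 7043 UMIs per well. No 2 columns were identical or shared a pool and well name. Rad21 transcripts, the check of the deletion, were found in 25.6%, 24.9% and 18.2% of wild-type wells and in 2.62%, 5.43% and 5.41% of Rad21-/- wells at 0, 2 and 8 h. All 8 macrophage markers were in the matrix, with Cd68 the highest in untreated cells. Mertk was the lowest, in 4.05% to 11.8% of wells per sample. The 14 markers of other cell types found in the matrix had a median share of 3.56% to 7.66% of wells per sample. Single markers ranged from 0% to 51.7%, so the median serves below only as a point of comparison. Whether their UMIs were stray RNA was not tested. The wells lay in 24 library pools, 23 of which held both genotypes and all of which held 1 time point, so that time and pool cannot be told apart.

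Levels below are summed UMIs of a gene per 1000000 UMIs of the sample (CPM). Ranges after a value are 95% intervals, exact Poisson for CPM, exact Clopper-Pearson for shares of wells and exact conditional binomial for ratios, and they cover counting error only, not the spread between mice or cultures. A gene was called higher or lower when its CPM differed at least 1.5-fold, by size alone, and was counted when it had at least 50 UMIs over both samples. Because UMIs were read at the 3' end, CPM is not divided by gene length, and capture can differ between genes.

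Klf6 was the most abundant of the 7 genes in every sample, with 3268 UMIs in all, and it accounted for most of the difference in their summed level in each of the 7 comparisons, of LPS with untreated cells or of the genotypes. In wild-type macrophages its level was 217 CPM (194 to 243) untreated, 741 CPM (693 to 791) at 2 h and 561 CPM (524 to 599.5) at 8 h of LPS. The Rad21-/- levels were 121 CPM (104.6 to 139), 356 CPM (323 to 390) and 318 CPM (292 to 345). Both genotypes were lowest untreated and highest at 2 h, and at each time the interval of the Rad21-/- sample lay below that of the wild-type sample. Between 2 h and 8 h the intervals overlapped in Rad21-/- macrophages and did not in wild-type macrophages. In the order of the 6 levels, Rad21-/- at 2 h and at 8 h were the only neighbours whose intervals overlapped.

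The change with LPS was 3.41-fold (2.99 to 3.89) at 2 h and 2.58-fold (2.27 to 2.95) at 8 h in wild-type macrophages. It was 2.95-fold (2.49 to 3.499) and 2.63-fold (2.23 to 3.11) in Rad21-/- macrophages. Whether the change with LPS differed between genotypes was not tested, and the comparisons of 2 h and 8 h share the untreated sample. Against wild-type, Klf6 was 1.80-fold (1.502 to 2.16) lower in untreated Rad21-/- macrophages, 2.08-fold (1.86 to 2.34) lower at 2 h and 1.77-fold (1.59 to 1.97) lower at 8 h. Klf6 was thus lower at every time, and the intervals of the 3 ratios overlapped.

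The share of wells with a Klf6 UMI was 65.1% (58.7 to 71.2) in untreated wild-type macrophages, 95.6% (91.5 to 98.1) at 2 h and 92.9% (89 to 95.7) at 8 h. The Rad21-/- shares were 44.9% (38.9 to 51.1), 82.1% (75.75 to 87.3) and 83.3% (77.8 to 88). These shares far exceeded the median share of the markers of other cell types. Because wells differ in depth, shares were also taken after drawing 3800 UMIs at random from each well, which left 191, 160 and 224 wild-type wells and 220, 152 and 201 Rad21-/- wells. The thinned shares of Klf6 were 52.4%, 89.4% and 86.6% in wild-type cells, and 36.4%, 64.5% and 63.7% in Rad21-/- macrophages. At 2 h, 51.2% of thinned wild-type wells held 3 or more Klf6 UMIs, against 16.4% of thinned Rad21-/- wells and 7.33% of untreated wild-type wells.

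Splitting the log2 difference of the thinned wells into these parts, the 2 h change of Klf6 in wild-type macrophages held 0.77 from the share of positive wells and 1.06 from the UMIs per positive well. The parts in Rad21-/- macrophages at 2 h were 0.83 and 0.55. Between genotypes, the share gave -0.53 and the UMIs per positive well -0.21 in untreated cells, and -0.47 and -0.72 at 2 h. At 8 h the genotype difference was divided into -0.44 and -0.48. At low counts both parts follow from the mean, and the 2 h share of wild-type wells is near its ceiling, so the split describes these wells and does not separate fewer expressing cells from less RNA per cell.

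**Figure D1:**
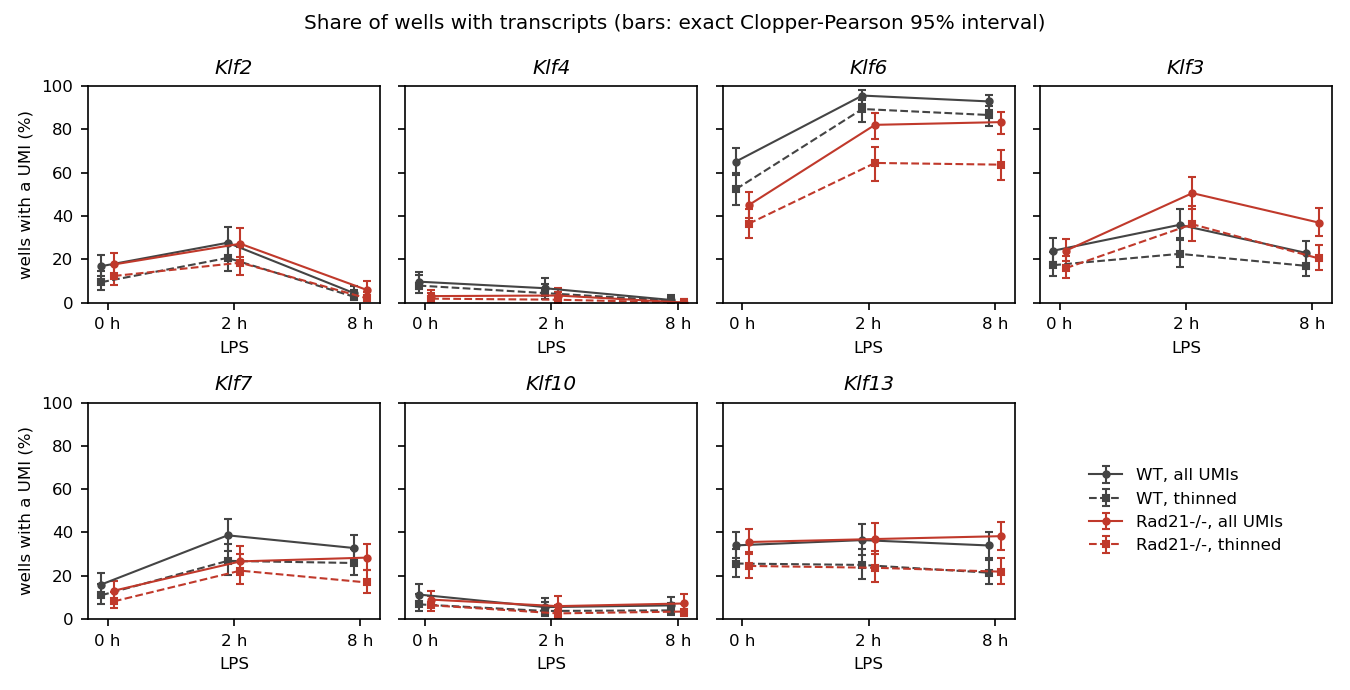
Percent of wells with at least 1 UMI of each gene (vertical axis) after 0, 2 or 8 h of LPS (horizontal axis), for wild-type (WT, grey) and Rad21-/- (red) macrophages, with all UMIs (solid lines, circles) and after thinning each well to 3800 UMIs (dashed lines, squares); bars are exact Clopper-Pearson 95% intervals. Klf6 went from 65.1% to 95.6% of wild-type wells at 2 h and from 44.9% to 82.1% of Rad21-/- wells, while Klf13 stayed between 33.99% and 38.3% before thinning.

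Since pools held both genotypes, Klf6 could be compared within a pool. Of 18 pools with at least 10 wells of each genotype, 8 untreated, 4 at 2 h and 6 at 8 h, the Rad21-/- wells had the lower share and the lower CPM of Klf6 in 18. Untreated pools ranged from 130 to 267 CPM in wild-type and from 87.8 to 155 CPM in Rad21-/- macrophages, which overlap. At 2 h the ranges were 663 to 862 CPM and 260 to 434 CPM, and at 8 h 410 to 809 CPM and 261 to 370 CPM, with no overlap. Pools of 1 condition are parts of 1 sample and are not replicates of it. Left without any 1 pool, each of the 7 comparisons kept its call of Klf6.

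**Figure D2:**
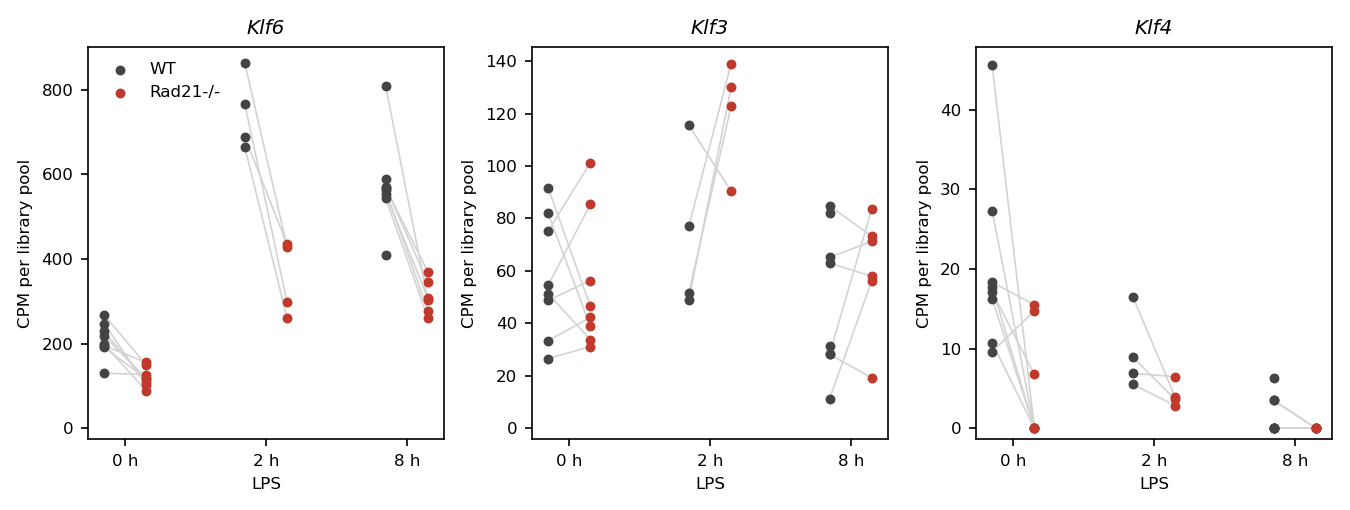
CPM of Klf6, Klf3 and Klf4 (vertical axes, each panel its own scale) in each library pool with at least 10 wells of a sample, after 0, 2 or 8 h of LPS (horizontal axis); grey points are wild-type (WT) wells, red points Rad21-/- wells, and grey lines join the genotypes of 1 pool. Every line of Klf6 runs downwards from wild-type to Rad21-/-, with the least difference, -3.24 CPM, in an untreated pool; the lines of Klf3 run both ways.

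Klf7 is the close relative of Klf6. Its level in wild-type macrophages was 31.8 CPM (23.3 to 42.5) untreated, 82.7 CPM (67.2 to 101) at 2 h and 72.6 CPM (59.8 to 87.3) at 8 h. The Rad21-/- levels were 21.8 CPM (15.3 to 30.2), 55.3 CPM (43 to 70) and 47.3 CPM (37.6 to 58.7). Klf7 was lowest untreated in both genotypes. In the order of the 6 levels every pair of neighbours overlapped, and at 8 h the intervals of the genotypes did not.

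With LPS, Klf7 was 2.60-fold (1.81 to 3.77) higher at 2 h and 2.28-fold (1.61 to 3.29) higher at 8 h in wild-type macrophages, and 2.53-fold (1.67 to 3.90) and 2.16-fold (1.45 to 3.30) higher in Rad21-/- macrophages. Between genotypes it was 1.46-fold (0.921 to 2.32) lower in untreated Rad21-/- cells, 1.496-fold (1.09 to 2.06) lower at 2 h and 1.54-fold (1.15 to 2.07) lower at 8 h. The 2 h value was just under the fold and was not called, and the 8 h value was, but both calls turned with the processing. The 2 h value was past the fold with all wells kept, at 1.97-fold, and with means of CPM per cell, at 1.56-fold. It was also past it with median-of-ratios factors, at 1.51-fold, and with pools weighted equally, at 1.55-fold. Without Mki67- or Top2a-positive wells it was 1.75-fold. It stayed under the fold with thinned wells, at 1.25-fold (0.818 to 1.93), and with TMM library sizes, at 1.49-fold. The 8 h value was under the fold with all wells kept, at 1.44-fold, and with means of CPM per cell, at 1.45-fold. With pools weighted equally it was 1.38-fold. It stayed past the fold with thinned wells, at 1.62-fold, and with TMM library sizes, at 1.77-fold. With median-of-ratios factors it was 1.78-fold, and without Mki67- or Top2a-positive wells 1.54-fold. With all wells kept, Klf7 in wild-type macrophages at 2 h stood at 116.6 CPM, 3.65-fold above untreated. Without the 8 h pool of 44 Rad21-/- and 48 wild-type wells the 8 h value was 1.42-fold lower, and it was also under the fold without that of 44 and 43 wells, at 1.47-fold, or that of 46 and 44 wells. The 2 h value was past the fold without any 1 of 4 pools, at up to 1.72-fold without that of 41 and 46 wells. The untreated value was past it without either of 2 pools, at 1.75-fold without that of 48 and 46 wells and 1.60-fold without that of 22 and 24. Within pools, the Rad21-/- share was lower in 15 of 18 and higher in 3.

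The share of wells with Klf7 was 16.0%, 38.7% and 32.8% in wild-type macrophages at 0, 2 and 8 h and 13.1%, 26.6% and 28.4% in Rad21-/- macrophages. After thinning, the shares were 11%, 26.9% and 25.9% against 8.18%, 22.4% and 16.9%. The 2 h change in thinned wild-type wells held 1.29 on the log2 scale from the share and 0.20 from the UMIs per positive well. Most positive wells held 1 UMI, which leaves that second part poorly resolved at this depth.

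Across the 6 samples, the log2(CPM + 1) profiles of Klf6 and Klf7 were alike, with a Pearson r of 0.992; these are 6 points that share libraries and depth, and r is given as a description. Among 5090 genes with at least 300 UMIs, the profiles most like that of Klf6 were those of Pdzd2 (r = 0.994), Ell2, an elongation factor of RNA polymerase II (r = 0.990), and Tcea1, also an elongation factor (r = 0.979). For Klf7 they were Tcea1 (r = 0.996), the chemokine gene Ccl4 (r = 0.993) and Ell2 (r = 0.990). Ell2, for example, stood at 39.4, 165 and 167 CPM in wild-type cells, and at 17.6, 77.7 and 63.99 CPM in Rad21-/- macrophages at 0, 2 and 8 h. A Pearson r takes no account of the size of a change. Pdzd2 stood at 31.1, 45.1 and 39.2 CPM in wild-type cells, and 26.1, 36.05 and 34.01 CPM in Rad21-/- macrophages. Tcea1 stood at 103.8, 145.3 and 144.6 CPM and 92.85, 129.8 and 122.2 CPM. Both stayed under 1.5-fold with LPS in each genotype, while Ell2 and Ccl4 were past it.

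Klf2 followed another course. Its level in wild-type macrophages was 31.1 CPM (22.7 to 41.7) untreated, 54.3 CPM (41.9 to 69.2) at 2 h and 7.07 CPM (3.53 to 12.6) at 8 h. Among Rad21-/- samples it was 41.9 CPM (32.6 to 53), 58.5 CPM (45.8 to 73.5) and 7.49 CPM (3.99 to 12.8). The 8 h samples lay below the others in both genotypes, with no overlap, and at each time the intervals of the genotypes overlapped. The 8 h call in wild-type macrophages was lost without either of 2 untreated pools (of 47 and 27 wild-type wells), where under 50 UMIs were left and the ratio was 4.06-fold and 4.07-fold.

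At 2 h Klf2 was 1.74-fold (1.17 to 2.61) higher in wild-type macrophages and, short of the fold, 1.40-fold (0.991 to 1.97) in Rad21-/- macrophages. At 8 h it was 4.40-fold (2.24 to 9.44) lower than untreated in wild-type cells, and 5.59-fold (3.06 to 11.02) lower in Rad21-/- macrophages. The 8 h samples rest on 11 and 13 UMIs. The share of wells with a Klf2 UMI was 16.8%, 27.6% and 4.35% in wild-type cells, and 17.6%, 27.2% and 5.86% in Rad21-/- macrophages. The 8 h shares were below the median share of the markers of other cell types in the same samples, 6.13% and 7.66%. At this depth a low level of Klf2 cannot be told apart from background there. After thinning, 9.42%, 20.6% and 2.68% of wild-type wells and 12.3%, 18.4% and 1.99% of Rad21-/- wells were positive.

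Between genotypes, Klf2 in Rad21-/- macrophages was 1.34-fold (0.911 to 2.004) the wild-type level untreated, 1.08-fold (0.761 to 1.53) at 2 h and 1.06-fold (0.438 to 2.61) at 8 h, the last on too few UMIs to be counted. A genotype difference in Klf2 was not detectable at this depth. Without the pool of 47 wells of each genotype the untreated ratio was 1.54-fold, and without a 2 h pool of 45 Rad21-/- wells the 2 h change in Rad21-/- macrophages was 1.55-fold, both past the fold. With means of CPM per cell that 2 h change was 1.56-fold, and with thinned wells the untreated genotype ratio was 1.52-fold. The deep wells bear on the 2 h value. Klf2 reached 136 CPM in the 5 deep wells of wild-type macrophages at 2 h, and with all wells kept the sample stood at 91.5 CPM, 2.99-fold above untreated, and Klf2 in Rad21-/- macrophages was then 1.56-fold lower than wild-type at 2 h.

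Klf4, the closest relative of Klf2 here in function, was scarce, with 64 UMIs in all. Its level in wild-type macrophages went from 22.1 CPM (15.1 to 31.3; 32 UMIs) untreated to 10.9 CPM (5.78 to 18.6; 13 UMIs) at 2 h and 1.93 CPM (0.398 to 5.63; 3 UMIs) at 8 h. The Rad21-/- samples had 6.07 CPM (2.91 to 11.2; 10 UMIs), 4.81 CPM (1.76 to 10.5; 6 UMIs) and 0. The untreated wild-type sample was the highest, and its interval overlapped that of wild-type at 2 h but no other.

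Klf4 never reached 50 UMIs over 2 samples and so was in no count of genes past the fold. Untreated Rad21-/- macrophages had 3.65-fold (1.75 to 8.32) less Klf4 than wild-type. Wild-type macrophages at 8 h had 11.5-fold (3.59 to 58.6) less than untreated. In Rad21-/- macrophages at 8 h no UMI was found in 222 wells, which allows a share of up to 1.35%, a limit on wells with a UMI at this depth and not on wells that express the gene (Clopper-Pearson upper bound 1.65%). Against the floor of 3 counts the level was at least 3.51-fold lower than the untreated value, which itself rests on 10 UMIs; with their counting error included, the exact interval reached down to 2.36-fold. The share of wells with Klf4 was 9.66% (6.23 to 14.1), 6.63% and 1.19% in wild-type cells, and 2.996% (1.30 to 5.82), 3.26% and 0% in Rad21-/- macrophages. Against a median share of 4.20% for markers of other cell types in untreated wild-type wells and 3.56% in untreated Rad21-/- wells, only untreated wild-type and wild-type at 2 h, beside 5.25%, lay above that level.

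Within pools, the Rad21-/- share of Klf4 was lower in 14 of 18 and higher in none, and its CPM was lower in 13 and higher in 1. The remaining pools were at 8 h and held no Klf4 UMI in either genotype. The size of the untreated genotype difference rested on few pools: it was 1.97-fold without the pool of 47 wells of each genotype and 6.69-fold without that of 48 Rad21-/- and 46 wild-type wells. With the deep wells kept, Klf4 in wild-type macrophages at 2 h stood at 17.3 CPM, with a log2 ratio to untreated of -0.33 instead of -1.03, and the 2 h genotype ratio went from 2.26-fold to 3.50-fold lower. Among wells without a UMI of the proliferation genes Mki67 or Top2a, a choice made after the data were seen, the untreated difference was 13.3-fold, on 3 UMIs in Rad21-/- macrophages.

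Klf3, whose protein acts as a repressor, was the member with a call above wild-type in Rad21-/- macrophages. In wild-type macrophages its level was 51.9 CPM (40.8 to 65.05) untreated, 74.3 CPM (59.7 to 91.5) at 2 h and 53.3 CPM (42.5 to 66.1) at 8 h. The Rad21-/- samples had 53.4 CPM (42.8 to 65.8), 121 CPM (102 to 142) and 66.3 CPM (54.7 to 79.6). The Rad21-/- sample at 2 h was the highest, and its interval overlapped no other. The intervals of the other 5 samples all overlapped.

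The 2 h change of Klf3 was 2.26-fold (1.73 to 2.98) in Rad21-/- macrophages and 1.43-fold (1.04 to 1.97), short of the fold, in wild-type macrophages. At 8 h it was 1.24-fold (0.932 to 1.66) and 1.03-fold (0.743 to 1.42). Between genotypes at 2 h, Klf3 was 1.63-fold (1.24 to 2.14) higher in Rad21-/- macrophages, against 1.03-fold untreated and 1.24-fold (0.929 to 1.67) at 8 h. The 2 h share of wells was 50.5% (43.1 to 58) in Rad21-/- and 35.9% (28.9 to 43.4) in wild-type macrophages, and 36.2% and 22.5% after thinning, against 15.9% to 20.4% in the other 4 samples.

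The call of Klf3 between genotypes at 2 h was not firm. Without the 2 h pool of 45 Rad21-/- and 42 wild-type wells, or that of 45 and 41, the ratio was 1.48-fold, and with the deep wells kept it was 1.28-fold, since wild-type Klf3 was then 95.6 CPM. Within pools at 2 h, the Rad21-/- share and CPM were each higher in 3 of 4 and lower in 1. Over all times the share was higher in 13 of 18 and lower in 5, and the CPM higher in 11 and lower in 7. With the deep wells kept, Klf3 at 2 h in wild-type macrophages was 1.85-fold above untreated. It was also past the fold with means of CPM per cell, at 1.51-fold, with median-of-ratios factors, at 1.54-fold, and without the pool of 42 or that of 41 wild-type wells at 2 h or an untreated pool of 13, at up to 1.57-fold. The profiles most like that of Klf3 over the 6 samples were those of Rpl9-ps7 (r = 0.976), RP24-68L4.6 (r = 0.969) and Dhx9, an RNA helicase gene (r = 0.967). Rpl9-ps7 is a pseudogene of a ribosomal protein gene, and its reads may be shared with copies of that gene.

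Klf10, known as an early target of TGF-beta, and Klf13, first studied in T lymphocytes, are relatives that bind SIN3A. Klf10 was scarce, with 111 UMIs. It stood at 21.4 CPM (14.6 to 30.4), 8.35 CPM (4.00 to 15.4) and 10.9 CPM (6.36 to 17.5) in wild-type cells, and at 15.2 CPM (9.82 to 22.4), 9.61 CPM (4.97 to 16.8) and 9.22 CPM (5.27 to 14.98) in Rad21-/- macrophages. The untreated samples were the highest of each genotype, and the genotypes overlapped at each time. In wild-type macrophages Klf10 was 2.57-fold (1.23 to 5.87) lower at 2 h and 1.96-fold (1.05 to 3.78) lower at 8 h, on too few UMIs to be counted. With the deep wells kept, the 2 h value shrank to a log2 ratio of -0.28, and Klf10 was 1.75-fold lower in Rad21-/- than wild-type macrophages at 2 h. Its untreated shares of wells, 11.3% in wild-type cells and 8.99% in Rad21-/- cells, lay above the median shares of other cell types' markers, 4.20% and 3.56%. At 2 h and 8 h its shares were 5.52% and 6.32% in wild-type cells, beside marker medians of 5.25% and 6.13% in the same samples. In Rad21-/- macrophages they were 5.98% and 7.21%, beside medians of 6.52% and 7.66%. After thinning, the shares of Klf10 were 2.63% to 6.81% over all samples.

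Klf13 was the steadiest of the 7 genes. It stood at 81.6 CPM (67.6 to 97.8), 71.8 CPM (57.4 to 88.7) and 79.05 CPM (65.7 to 94.3) in wild-type cells, and at 74.04 CPM (61.5 to 88.4), 74.5 CPM (60.1 to 91.3) and 63.99 CPM (52.6 to 77.1) in Rad21-/- macrophages. All 6 intervals overlapped. None of its 7 ratios passed the fold, the widest being 1.24-fold (0.948 to 1.61) lower in Rad21-/- than wild-type macrophages at 8 h. Between 33.99% and 38.3% of wells were positive, and 21.4% to 25.7% after thinning. Its likest profiles were those of Nf1 (r = 0.983), which encodes a negative regulator of RAS, Nudt9 (r = 0.976) and the splicing factor gene Hnrnpm (r = 0.970).

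**Figure D3:**
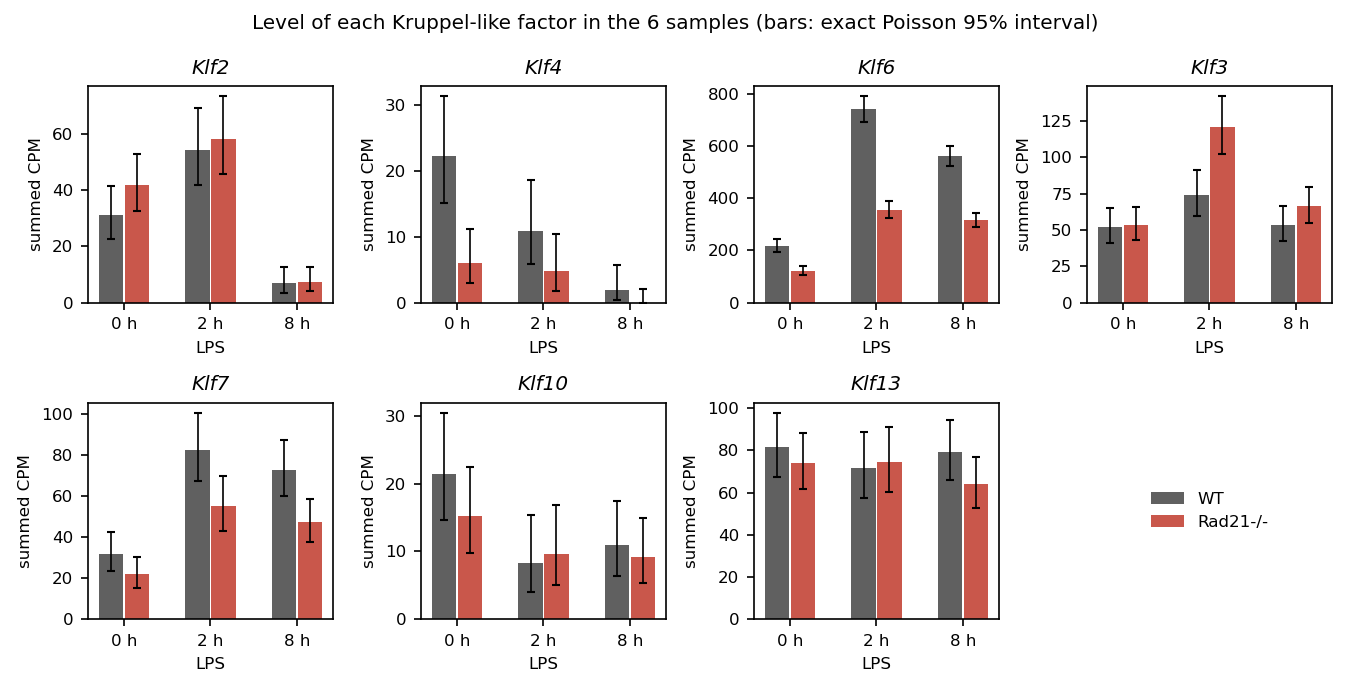
Summed CPM of each of the 7 genes (vertical axes, each panel its own scale from 0) after 0, 2 or 8 h of LPS (horizontal axis) in wild-type (WT, grey bars) and Rad21-/- (red bars) macrophages, 1 sample per bar; error bars are exact Poisson 95% intervals. Klf6 was highest at 741 CPM in wild-type macrophages at 2 h, Klf3 at 121 CPM in Rad21-/- macrophages at 2 h, and Klf2 was at 7.07 and 7.49 CPM at 8 h.

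Counted against all genes, the KLFs that passed the fold in each comparison were as follows. At 2 h of LPS in wild-type macrophages, 3 of 5 members counted were higher (Klf2, Klf6 and Klf7) and none lower, where 8% of all genes were higher and 13.5% lower. At 8 h, 2 were higher (Klf6 and Klf7) and 1 lower (Klf2), where 12.8% of all genes were higher and 29.9% lower. In Rad21-/- macrophages at 2 h, 3 of 5 were higher (Klf6, Klf3 and Klf7) and none lower, beside 8.87% and 8.76% of all genes. At 8 h in Rad21-/- macrophages, 2 of 5 were higher (Klf6 and Klf7) and 1 lower (Klf2), beside 14.7% higher and 14.7% lower.

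Between genotypes, untreated Rad21-/- macrophages had 1 of 6 members lower (Klf6) and none higher, beside 12.2% of all genes lower and 6.08% higher. At 2 h, 1 of 5 was lower (Klf6) and 1 higher (Klf3), beside 10.8% and 11.3%. At 8 h, 2 of 4 were lower (Klf6 and Klf7) and none higher, beside 10.1% and 22.2%. The genotype counts of 1 gene are small and, apart from 8 h, close to what the share of all genes would give. Members not counted had under 50 UMIs, Klf4 in every comparison, Klf10 in all but the untreated genotype comparison and Klf2 in the 8 h genotype comparison.

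The median log2 ratio of the members counted was 0.80 at 2 h and 0.04 at 8 h in wild-type macrophages, beside -0.11 and -0.24 over all genes. It was 1.18 and 0.31 in Rad21-/- macrophages, beside -0.03 and -0.02. Between genotypes it was -0.32, 0.05 and -0.46 at 0, 2 and 8 h, beside -0.04, 0.04 and 0.20. Where the median of all genes was off 0 by more than 0.1, the scale of CPM matters. With TMM library sizes the shares higher and lower of all genes became 10.5% and 9.74% at 2 h and 21.1% and 18.3% at 8 h in wild-type macrophages, and 13.4% and 15.6% between genotypes at 8 h. On that scale Klf6 had a log2 ratio of 1.68 instead of 1.37 at 8 h in wild-type macrophages and -1.03 instead of -0.82 between genotypes at 8 h, and Klf3 passed the fold at 2 h in wild-type macrophages. No other call of the 7 genes changed with TMM.

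**Figure D4:**
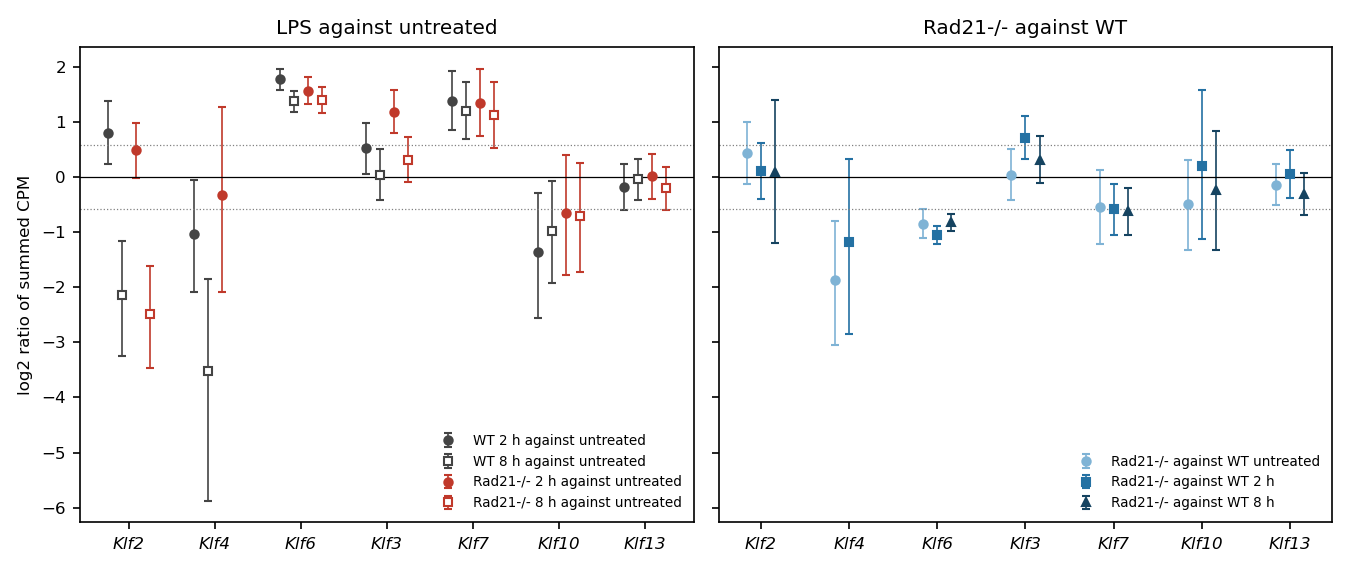
Log2 ratio of summed CPM (vertical axis) for each gene (horizontal axis), on the left for LPS against untreated in wild-type (WT, grey) and Rad21-/- (red) macrophages at 2 h (filled circles) and 8 h (open squares), on the right for Rad21-/- against wild-type untreated (circles), at 2 h (squares) and at 8 h (triangles); bars are exact 95% intervals of counting error and dotted lines mark 1.5-fold. Ratios of Klf4 with a Rad21-/- sample at 8 h are left out because no UMI was found; Klf6 lies below 0 in each of the 3 genotype comparisons and Klf2 at -2.14 and -2.48 at 8 h of LPS.

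Together the 7 genes summed to 457, 1043 and 786 CPM in wild-type cells, and 333, 679 and 512 CPM in Rad21-/- macrophages at 0, 2 and 8 h. Klf6 made up 47.5%, 71.0% and 71.4% of these UMIs in wild-type cells, and 36.2%, 52.4% and 62.05% in Rad21-/- macrophages. Klf13 and Klf3 came next in untreated cells, with 17.9% and 11.3% in wild-type cells, and 22.2% and 16.0% in Rad21-/- macrophages. Klf2 went from 6.81% and 12.6% of the UMIs in untreated wild-type and Rad21-/- cells to 0.90% and 1.46% at 8 h. With the deep wells kept, the share of Klf6 in wild-type macrophages at 2 h was 61.4%. In thinned wells, the mean number of the 7 genes detected was 1.30, 1.93 and 1.58 in wild-type cells, and 1.05, 1.69 and 1.28 in Rad21-/- macrophages. Wells with none of the 7 made up 23.6%, 3.75% and 4.02% of wild-type and 29.5%, 11.8% and 17.4% of Rad21-/- wells.

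**Figure D5:**
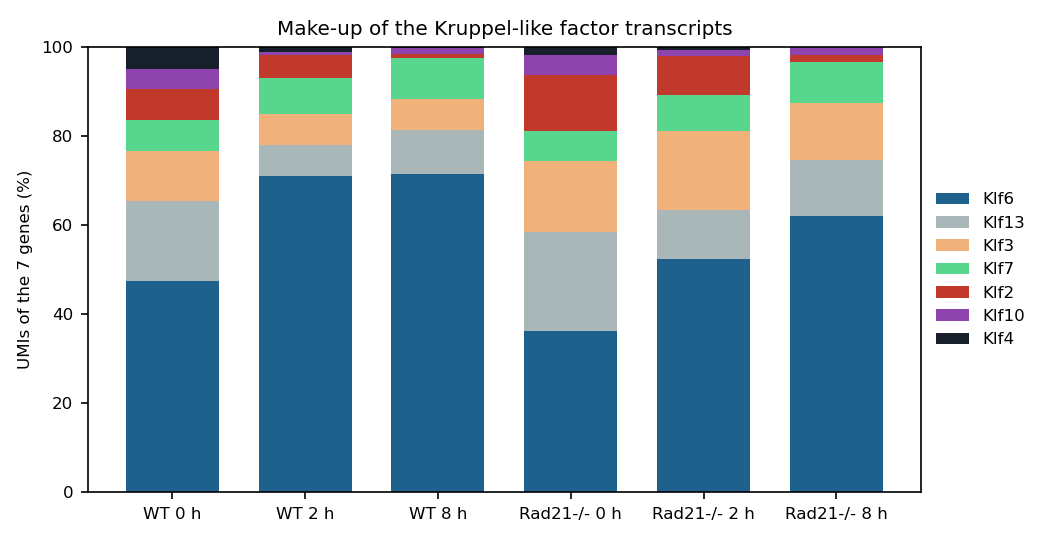
Percent of the UMIs of the 7 genes that belongs to each gene (vertical axis) in the 6 samples (horizontal axis; WT, wild-type; 0, 2 and 8 h of LPS), as stacked bars that sum to 100. The Klf6 part was 47.5% in untreated and 71.0% in 2 h wild-type macrophages and 36.2% and 52.4% in Rad21-/- macrophages.

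Markers of other cells and of the cell cycle moved with genotype and time. Of the B cell list, 2 of 5 genes were in the matrix. Ighm was found in 51.7%, 45.1% and 41.9% of Rad21-/- wells at 0, 2 and 8 h, against 17.2%, 8.84% and 7.91% of wild-type wells, while Ms4a1 was in 2.62% to 9.24% of wells in every sample. The summed level of the list was 165 to 180 CPM in Rad21-/- and 23.8 to 51.2 CPM in wild-type samples. Wells with a UMI of Mki67 or Top2a made up 40.3%, 46.96% and 14.2% of wild-type and 25.1%, 23.4% and 22.1% of Rad21-/- wells. Without them, Klf6 was 1.87-fold, 2.04-fold and 1.695-fold lower in Rad21-/- macrophages at 0, 2 and 8 h and 3.28-fold higher at 2 h in wild-type macrophages. Klf3 at 2 h was then 1.60-fold higher in Rad21-/- macrophages, and Klf2 at 8 h in wild-type macrophages 5.51-fold lower on 8 UMIs. The part of Ighm-positive wells in these values was not tested.

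The gene lists around the KLFs were read by the same fold. Of 19 other KLF and SP factors, 11 were in the matrix, and 3, Sp1, Sp2 and Sp3, had enough UMIs to be counted. None of the 3 passed the fold in wild-type macrophages. In Rad21-/- macrophages at 2 h Sp2 was higher, on 29 UMIs against 25 untreated, and Sp1 and Sp3 were lower. At 8 h Sp1 was lower. Of all genes, 8.87% were higher and 8.76% lower at 2 h, and 14.7% lower at 8 h. Between genotypes Sp2 was lower in untreated Rad21-/- macrophages, on the same 25 UMIs against 35 in wild-type cells, beside 12.2% of all genes. None passed the fold at 2 h or 8 h. Sp3 was the most abundant, at 52.6, 48.4 and 60.4 CPM in wild-type cells, and 63.7, 41.7 and 53.04 CPM in Rad21-/- macrophages. Klf8, Klf9, Klf11, Klf12, Klf16 and Klf17 had 15 to 84 UMIs each.

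Of 12 cofactor genes, all 12 were in the matrix and 10 or 11 were counted. At 2 h in wild-type macrophages 1 was higher and 1 lower, and at 8 h 2 were higher and 3 lower, with median log2 ratios of -0.04 and -0.28. These shares were near those of all genes, 8% higher and 13.5% lower at 2 h and 12.8% and 29.9% at 8 h. Among Rad21-/- ratios 1 was higher and 1 lower at 2 h, and none higher and 2 lower at 8 h. Of all genes, 8.87% were higher and 8.76% lower at 2 h, and 14.7% each way at 8 h. Wwp1, a ubiquitin ligase gene whose product acts on KLF proteins, stood at 233, 149 and 21.9 CPM in wild-type cells, and 165, 123.4 and 44.4 CPM in Rad21-/- macrophages, so it was lowest at 8 h, as Klf2 was. Ctbp1, the partner of Klf3, stood at 76.1, 61.0 and 34.7 CPM and 92.9, 73.7 and 55.9 CPM, while Sin3b lay between 115.4 and 167 CPM in all samples. Between genotypes 1, 1 and 2 cofactors were higher at 0, 2 and 8 h and 0, 0 and 1 lower. The shares of all genes were 6.08%, 11.3% and 22.2% higher and 12.2%, 10.8% and 10.1% lower.

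Klf2 and Klf4 are classical targets of the ERK5 kinase pathway and its MEF2 factors. Of 7 such genes 6 were in the matrix and 5 counted. In wild-type macrophages 1 was lower at 2 h and 3 at 8 h (Map2k5, Mef2c and Mef2d), and none higher, beside 13.5% and 29.9% of all genes lower. Of the Rad21-/- ratios none passed the fold at 2 h and 1, Mef2c, was lower at 8 h, beside 14.7% of all genes. Mef2c stood at 51.2, 30.1 and 13.5 CPM in wild-type cells, and 61.3, 61.7 and 17.9 CPM in Rad21-/- macrophages. Mef2d stood at 38.7, 35.1 and 10.3 CPM and 44.9, 61.7 and 42.7 CPM, and Mef2a, the most abundant, at 64.3, 71.8 and 45.0 CPM and 83.7, 91.3 and 72.6 CPM. Between genotypes none passed the fold untreated, while 2 were higher at 2 h (Mef2c and Mef2d) and 2 at 8 h (Mef2a and Mef2d). Of all genes, 11.3% were higher at 2 h and 22.2% at 8 h.

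The list of TGF-beta signalling genes around Klf10 held 9 genes, all in the matrix, with 6 or 7 counted. In wild-type macrophages 2 were higher at 2 h, and 1 higher and 4 lower at 8 h, when 29.9% of all genes were lower. The shares of all genes higher were 8% at 2 h and 12.8% at 8 h. In Rad21-/- macrophages 1 was higher at 2 h, and 2 higher and 3 lower at 8 h. Of all genes, 8.87% were higher at 2 h, and 14.7% higher and 14.7% lower at 8 h. Tgfbr2, a receptor gene, was higher in Rad21-/- macrophages at all 3 times, at 187, 223 and 91.7 CPM against 83.03, 74.3 and 39.2 CPM. Tgfb1, the ligand gene, stood at 157, 112 and 82.9 CPM in wild-type cells, and 198, 202 and 227 CPM in Rad21-/- macrophages, and Tgfbr1 at 56.0, 92.7 and 17.99 CPM and 54.01, 56.9 and 32.3 CPM. In all, 1, 2 and 3 genes of the list were higher between genotypes at 0, 2 and 8 h and 0, 1 and 0 lower. Of all genes, 6.08%, 11.3% and 22.2% were higher and 12.2%, 10.8% and 10.1% lower.

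Of 15 genes that the literature ties to KLF2 or KLF4, 11 were in the matrix and 4 to 6 counted. At 8 h 3 were lower in each genotype, Mrc1, Ccnd1 and Lgals3, of 5 counted in wild-type and 6 in Rad21-/- macrophages. Beside them, 29.9% and 14.7% of all genes were lower. In Rad21-/- macrophages 1 of 6 was higher, beside 14.7% of all genes. At 2 h, 1 was higher, Cdkn1a, and 1 lower, Ccnd1, in each genotype. All genes were then 8% higher and 13.5% lower in wild-type cells, and 8.87% and 8.76% in Rad21-/- macrophages. Lgals3, the galectin-3 gene, stood at 2380, 2277 and 1544 CPM in Rad21-/- macrophages against 5166, 4901 and 2429 CPM in wild-type cells. Cdkn1a, which encodes a cell cycle inhibitor, stood at 341, 905 and 403 CPM in wild-type cells, and 161.4, 740 and 236 CPM in Rad21-/- macrophages. Mrc1, the mannose receptor gene, stood at 337, 263 and 118 CPM and 348, 352 and 146 CPM. Between genotypes 4, 2 and 2 of the counted genes were lower at 0, 2 and 8 h and none higher. Of all genes, 12.2%, 10.8% and 10.1% were lower and 6.08%, 11.3% and 22.2% higher.

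Immediate-early genes are a class that responds to stimuli within minutes to hours. Of 18 genes 16 were in the matrix. At 2 h, 10 of 13 counted were higher and 1 lower in wild-type cells, and 10 of 12 higher and none lower in Rad21-/- macrophages, with median log2 ratios of 1.82 and 2.62, beside 8% and 8.87% of all genes higher. At 8 h, 5 of 9 and 7 of 9 were higher and 1 lower in each. Of all genes, 12.8% and 14.7% were then higher and 29.9% and 14.7% lower. The summed level was 542, 2680 and 1769 CPM in wild-type cells, and 347, 2011 and 919 CPM in Rad21-/- macrophages. Junb stood at 64.3, 775 and 284 CPM and 42.5, 528 and 111 CPM, Atf3 at 104, 367 and 336 CPM and 33.4, 319 and 148.2 CPM, and Zfp36 at 37.4, 490 and 348 CPM and 21.8, 298 and 81.3 CPM. Between genotypes 6, 4 and 5 of the counted genes were lower and 1, 2 and 1 higher at 0, 2 and 8 h. The shares of all genes were 12.2%, 10.8% and 10.1% lower and 6.08%, 11.3% and 22.2% higher. The list also holds genes that the dissociation of cells can induce, and the part of cell handling in the KLF values was not tested.

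The promoters of the 3 genes past the fold with LPS in wild-type macrophages, Klf6, Klf7 and Klf2, are shown to place these differences on the genome. The sequences are the 250 bases before the annotated start, 5' to 3' on the strand of the gene, from RefSeq on GRCm38.p6, and capitals mark each match on either strand to GGGCGG (the GC box), CACCC, TGACGTCA (CRE, the cyclic AMP response element) or the MEF2 motif. Klf2 lies on chromosome 8 at 72319062 to 72321654, with the stretch shown at chr8:72318812-72319061 on the plus strand. Klf6 lies on chromosome 13 at 5861489 to 5870393, with the stretch shown at chr13:5861239-5861488 on the plus strand. Klf7 lies on chromosome 1 at 64029448 to 64122345, with the stretch shown at chr1:64121390-64121639 on the minus strand, inside the span of the gene because the start used is not its outermost.
Klf2: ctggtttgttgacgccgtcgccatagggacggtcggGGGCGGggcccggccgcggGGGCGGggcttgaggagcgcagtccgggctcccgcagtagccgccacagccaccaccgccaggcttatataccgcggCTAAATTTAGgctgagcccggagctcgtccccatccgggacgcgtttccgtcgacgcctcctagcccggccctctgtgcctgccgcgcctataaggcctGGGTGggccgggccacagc
Klf6: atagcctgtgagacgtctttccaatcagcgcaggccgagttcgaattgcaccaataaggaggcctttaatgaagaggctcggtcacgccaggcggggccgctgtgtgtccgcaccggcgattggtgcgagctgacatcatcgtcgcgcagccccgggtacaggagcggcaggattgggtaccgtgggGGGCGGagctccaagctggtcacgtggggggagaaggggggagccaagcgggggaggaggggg
Klf7: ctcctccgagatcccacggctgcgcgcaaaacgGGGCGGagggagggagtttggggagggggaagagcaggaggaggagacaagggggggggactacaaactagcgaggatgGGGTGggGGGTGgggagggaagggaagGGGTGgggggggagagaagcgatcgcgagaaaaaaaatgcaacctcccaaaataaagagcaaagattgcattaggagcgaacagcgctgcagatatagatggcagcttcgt

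Entries were found for 6 of the 7 genes, all but Klf10, and windows of 300 bases, 250 before and 50 after the start, were searched. The Klf2 window held 1 match to the MEF2 motif, at -118 from the start, where 3.19% of 32841 promoter windows hold such a match. It also held 1 CACCC match, at -19, and 2 GC boxes. The Klf6 window held 1 GC box, at -63, and no CACCC. The Klf7 window held 3 CACCC matches, at -138, -131 and -111, and 1 GC box. GC boxes were found in 35.7% and CACCC in 57.5% of all windows. Klf3 had 6 GC boxes and 5 CACCC matches, Klf4 4 GC boxes and Klf13 3 GC boxes and 1 CACCC match, with 1 overlapping pair of matches in each of these 3 windows. No CRE was found in the 6 windows, where 1.79% of all windows hold one. A match is a description of these letters only, and the absence of one says nothing about a factor.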

How the data were processed

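MARS-seq UMI counts of 6 samples, each 1 condition, were analysed. The authors sorted wells by pool and cell barcode, trimmed polyT and mapped reads with GEMTools to GRCm38.p4 with Gencode genes. They dropped wells with a high share of spike-in, a low share of mapped reads or a very high number of reads. UMIs of a gene with near-identical sequence were merged. A filter on genes found in few cells is also stated, but the deposited matrix does not show it. The deposited values are whole-number counts per gene and well, without normalization. Every column was mapped to a sample by its name, and 0 columns were left unused.

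Wells with more than 25000 UMIs were left out. UMIs were summed per sample and divided by the total (CPM). Total counts of 1197415 to 1734640 per sample set the precision given by the intervals; a count of 0 was read against a floor of 3 counts. Python 3.11.15 (numpy 2.4.6, pandas 2.3.3, scipy 1.17.1, matplotlib 3.10.9) was used, with edgeR 4.0.16 in R 4.3.3 for TMM factors only. With 1 sample per condition no test was run; a model of genotype across the 3 times was not fitted. Calls by fold were tested on simulated data. The text names the 7 genes, the 3 genes of each list with the most UMIs, the 3 genes with the likest profile for members of at least 300 UMIs (Klf6, Klf3, Klf7 and Klf13), and Rad21. The genes that passed the fold in small counts, the other Klf genes, Ighm, Ms4a1 and Mertk were named after their values were seen. Alternatives were all wells, thinning to 3800 UMIs, means of CPM per cell, TMM or median-of-ratios factors, pools weighted equally, each pool left out in turn, a fold of 2, no UMI minimum and positivity from 2 UMIs. The alternative without Mki67- or Top2a-positive wells was added after the data were seen. The members and lists were chosen with earlier results of these data known. Gene coordinates and promoters are from RefSeq on GRCm38.p6, a later patch of the build the authors mapped to.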

Additional observations from a re-analysis of the deposited data

Results flagged for a closer look

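The wells of more than 25000 UMIs were left out of the main values above, and whether they held more than 1 cell was not tested. In treated samples, the intervals of 5 genes in these wells lay above those of the untreated wells of the same genotype and of the wells used in the same sample. In the 5 deep wells of wild-type macrophages at 2 h, Klf2 stood at 136 CPM, Klf3 at 121 CPM, Klf7 at 157 CPM and Klf13 at 123.2 CPM. The wells used in that sample had 54.3, 74.3, 82.7 and 71.8 CPM. Single wells carried much of these values, 65 of 136 UMIs of Klf2, 63 of 121 of Klf3, 100 of 157 of Klf7 and, for Klf13, 71 UMIs, and the mean over the 5 wells of the CPM of Klf7 was 114.6. In the 2 deep wells of Rad21-/- macrophages at 8 h, Klf6 stood at 429 CPM, beside 318 CPM in the wells used.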

How the results depend on the processing

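Single values are limited by depth: a count of 0 allows up to 1.73 to 2.51 CPM per sample, Klf4 at 8 h is near that limit, and Klf10 and Klf2 at 8 h rest on 11 to 17 UMIs per sample. No called ratio changed direction. Klf6 kept its call in every comparison under all wells, thinning, TMM and pools left out; at a fold of 2 it lost the untreated and 8 h genotype calls. The cause of the other changes was not tested.

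Counts of members higher or lower that changed by over 1.5 times were as follows. With all wells kept, lower members were 2 at 8 h in wild-type macrophages, 4 between genotypes at 2 h and 1 at 8 h, and higher members 0 at 2 h between genotypes. Of all genes, 27.8%, 20.1% and 9.07% were then lower in these comparisons, and 4.99% higher between genotypes at 2 h. Without the deep wells 10.8% were lower and 11.3% higher between genotypes at 2 h. The median log2 ratio of all genes there was -0.18 with all wells and 0.04 without the deep wells. With thinning, lower members were 0 at 8 h in each genotype, since Klf2 no longer had 50 UMIs, and higher members 1 between untreated genotypes. Of all genes, 26.7% in wild-type and 14.7% in Rad21-/- macrophages were then lower at 8 h, and 7.33% higher between untreated genotypes. Without Mki67- or Top2a-positive wells, lower members were 0 at 8 h in wild-type macrophages and 2 between genotypes at 2 h. Of all genes, 26.3% and 10.2% were lower there. With means of CPM per cell, and with equal weight per pool, lower members between genotypes were 2, 2 and 1 at 0, 2 and 8 h. Of all genes, 13.03%, 12.2% and 10.7% were lower at these times with means of CPM per cell. With equal weight per pool these shares were 13.1%, 11.03% and 10.7%. With median-of-ratios factors, lower members between genotypes at 2 h were 2, beside 11.3% of all genes lower. At a fold of 2, lower members between genotypes were 0 at 0 and 8 h, and higher members 0 at 2 h. With no UMI minimum, lower members were 2 and 3 at 2 and 8 h in wild-type and 1 and 2 in Rad21-/- macrophages. Between genotypes they were 2 at 0 and at 2 h. The members added by this setting were Klf4 and Klf10, which rested on few UMIs. Leaving out each pool, lower members ranged from 0 to 1 at 8 h in wild-type macrophages, and between genotypes from 1 to 2 at each time; higher members between genotypes ranged from 0 to 1 untreated and at 2 h. Smaller changes were in members higher at 2 h. In wild-type macrophages there were 4 with all wells, means of CPM per cell, TMM or median-of-ratios factors. All genes were then 16.9%, 8.91%, 10.5% and 10.6% higher. There were 2 at a fold of 2 and 3 to 4 leaving out each pool. In Rad21-/- macrophages there were 4 with means of CPM per cell, beside 9.11% of all genes, and 3 to 4 leaving out each pool. No share of all genes is set beside the counts at a fold of 2, with no UMI minimum or with pools left out. Those counts are therefore not read as a result about the members. Beside ratios given above, those that moved past their interval were those of Klf2 at 2 h with all wells, at a log2 of 1.58 in wild-type macrophages and -0.64 between genotypes, and of Klf6 at 2 h between genotypes without the pool of 41 Rad21-/- and 46 wild-type wells, at -1.23. Of the shares of wells, 31 moved with thinning and 41 when 2 UMIs were asked for, all downwards.

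No paired analysis was run. Each condition is 1 sample, so that replicate numbers pair nothing. The genotypes were compared as values within pools and times, and no test over the 3 times was run.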
